A study of Homo sapiens with 35 samples.

Results

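The RNAs read from the mitochondrial genome were followed in RPMI-8226, an established multiple myeloma line, through recovery from a pulse of the proteasome inhibitor carfilzomib. Members were all genes of the count table whose symbol starts with MT-. The table has 84647 rows, each a gene symbol with 1 transcript biotype, for 56816 symbols. The rule gave 37 of these symbols, each with a single row, and they were 13 mRNAs, 2 rRNAs and 22 tRNAs. The cells received 750 nM carfilzomib for 1 h, were washed, and were then kept in drug-free medium that was replaced at regular intervals. Each of 7 time points (day 0, then 1, 2, 4, 6, 8 and 10 days after the pulse) had 5 replicates of sequenced total RNA, which made 35 libraries in all. Day 0 served as the untreated reference, since the study's methods place its collection before the drug, although the labels list the carfilzomib treatment for the day 0 libraries too. All libraries came from 1 cell line, and the replicates were subcultures split from 1 expanded culture, so the p-values cover the spread between these subcultures. The time since the last medium change and the adjustment of cell density also differed between days, and cannot be told apart from the time since the pulse.

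The mitochondrial genome is a small circle that encodes core subunits of the respiratory chain and of ATP synthase, together with the rRNAs and tRNAs of its own ribosomes. Both strands are transcribed as long precursors, and most mRNAs and rRNAs are freed when the tRNAs that lie between them are cut out. The precursor of one strand carries nearly all genes, whereas that of the light-strand promoter carries MT-ND6 and a minority of the tRNAs. The level of each mature RNA therefore depends on its processing and decay as well as on transcription. Plasma cells and myeloma cells make antibody in large amounts and depend strongly on proteasomes.

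Libraries held 6519392 to 10962890 estimated counts (median 7643975). The 8 plasma cell markers examined had counts in every library, among them JCHAIN (the antibody joining chain) at a mean of 3476 CPM and SDC1 (the myeloma surface marker CD138) at 219 CPM. Of 8 markers of other cell types, CD3D (T cells) and HBB (erythroid cells) were at 0 in 32 of the 35 libraries and LYZ (monocytes) in 28, whereas the epithelial marker EPCAM had a mean of 66.9 CPM and MS4A1 (B cells) 7.36 CPM. CD3E (T cells) had a mean of 2.04 CPM, and COL1A1 (fibroblasts) and CD14 (monocytes) were at 0 in 6 and 7 libraries. CPM is here the count of a row scaled to a library total of 1e6 counts over all rows, and carries no correction for gene length.

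The genes were located on the mitochondrial chromosome of the human assembly hg38 (16569 bases) with GENCODE release 44. Of the 37 genes, 28 lie on the plus strand and 9 on the minus strand, and the latter are MT-ND6 and 8 tRNAs. The tRNA genes are 59 to 75 bases long. The tRNAs printed first are those on the minus strand that carried most of the tRNA counts or changed the most. MT-TA, MT-TN, MT-TC and MT-TY (alanine, asparagine, cysteine and tyrosine) follow one another at chrM:5587-5655, chrM:5657-5729, chrM:5761-5826 and chrM:5826-5891, between MT-ND2 and MT-CO1. MT-TE (glutamic acid, chrM:14674-14742) and MT-TP (proline, chrM:15956-16023) lie before and after MT-CYB. Each is shown 5′ to 3′ on the minus strand, with the gene in capitals and 20 bases on either side in lower case.
MT-TA: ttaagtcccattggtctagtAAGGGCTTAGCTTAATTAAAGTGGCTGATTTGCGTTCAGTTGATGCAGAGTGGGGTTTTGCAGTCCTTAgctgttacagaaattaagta
MT-TN: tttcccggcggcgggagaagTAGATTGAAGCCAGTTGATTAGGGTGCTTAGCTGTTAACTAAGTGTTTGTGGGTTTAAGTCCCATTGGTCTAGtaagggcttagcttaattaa
MT-TC: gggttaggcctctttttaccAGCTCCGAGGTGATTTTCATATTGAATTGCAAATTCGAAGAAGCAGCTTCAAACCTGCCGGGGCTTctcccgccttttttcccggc
MT-TY: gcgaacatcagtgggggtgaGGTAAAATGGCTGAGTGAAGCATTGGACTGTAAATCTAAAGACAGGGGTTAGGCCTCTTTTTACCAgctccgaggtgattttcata
MT-TE: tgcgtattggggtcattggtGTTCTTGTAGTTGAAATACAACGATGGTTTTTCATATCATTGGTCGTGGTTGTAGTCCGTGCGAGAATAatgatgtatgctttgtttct
MT-TP: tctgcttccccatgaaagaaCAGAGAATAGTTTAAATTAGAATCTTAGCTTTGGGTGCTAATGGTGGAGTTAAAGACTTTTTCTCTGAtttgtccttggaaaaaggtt

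On the plus strand, MT-TV (valine, chrM:1602-1670) joins the 2 rRNA genes with no base between them, and is shown as the junction whose processing separates MT-RNR1 from MT-RNR2. MT-TG (glycine, chrM:9991-10058) and MT-TL2 (leucine, chrM:12266-12336) are shown because their counts rose after the pulse. Capitals again mark the gene.
MT-TV: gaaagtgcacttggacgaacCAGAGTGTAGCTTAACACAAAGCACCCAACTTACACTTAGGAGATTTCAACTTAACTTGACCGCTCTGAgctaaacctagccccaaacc
MT-TG: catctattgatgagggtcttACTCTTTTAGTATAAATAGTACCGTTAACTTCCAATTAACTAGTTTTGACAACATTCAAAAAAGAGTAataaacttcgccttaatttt
MT-TL2: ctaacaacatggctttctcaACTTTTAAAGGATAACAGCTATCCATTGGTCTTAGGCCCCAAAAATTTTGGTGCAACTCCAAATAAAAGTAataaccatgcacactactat

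Neighbouring mRNA genes share bases in 3 places, and reads in the shared stretch cannot be assigned to 1 gene. MT-ATP8 and MT-ATP6 overlap by 46 bases (chrM:8527-8572, plus strand), and MT-ND4L and MT-ND4 overlap by 7 bases (chrM:10760-10766, plus strand), and MT-ATP6 and MT-CO3 share 1 base at position 9207. The longer overlaps are marked by the capitals below, and the levels of these genes are uncertain to that extent.
MT-ATP8 and MT-ATP6: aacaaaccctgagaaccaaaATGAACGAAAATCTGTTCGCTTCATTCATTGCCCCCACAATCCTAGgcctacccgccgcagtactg
MT-ND4L and MT-ND4: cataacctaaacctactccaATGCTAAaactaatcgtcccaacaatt

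The mitochondrial genes made up a smaller share of the libraries after the pulse than before it. On day 0 they held 7.64, 9.17, 10.6, 8.60 and 7.34% of all counts in replicates 1 to 5 (8.66% ± 1.29, SD, n = 5). On day 1 the 5 values were 7.16, 5.96, 5.55, 6.12 and 5.42% (6.04% ± 0.688), and every one was below the lowest day 0 library. The day 2 libraries reached at most 7.33% (6.73% ± 0.472) and those of day 4 at most 6.92% (6.39% ± 0.468), again below all 5 day 0 libraries. The means then stood at 6.74% ± 0.684, 6.90% ± 0.744 and 7.19% ± 0.927 (days 6, 8 and 10), and each time at least 1 library overlapped the day 0 range. These shares are a description and were not tested. In bulk RNA, fewer cells with a given level and less RNA per cell cannot be told apart, and a lower share can also follow from more RNA of other genes.

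The classes did not follow the same course. The 13 mRNAs held 85.59% of the 19444420 member counts over all libraries, the 2 rRNAs 14.16% and the 22 tRNAs 0.2562%. The mRNA share of all counts was 7.61% ± 1.15 before the pulse, 5.17% ± 0.657 at day 1 and 6.20% ± 0.851 at day 10. The rRNA share was 1.04% ± 0.142 before the pulse, lowest on day 2 at 0.694% ± 0.0345 and highest on day 6 at 1.27% ± 0.118. The tRNA share lay between 0.0143% (day 1) and 0.0205% (day 8) as daily means. Across the same libraries, all protein-coding rows together held 79.8% of counts on day 0 and 83.5% on day 1, and rows of the retained-intron type held 7.15% and 5.05%. The part of these shifts in the mitochondrial shares was not tested.

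**Figure D1:**
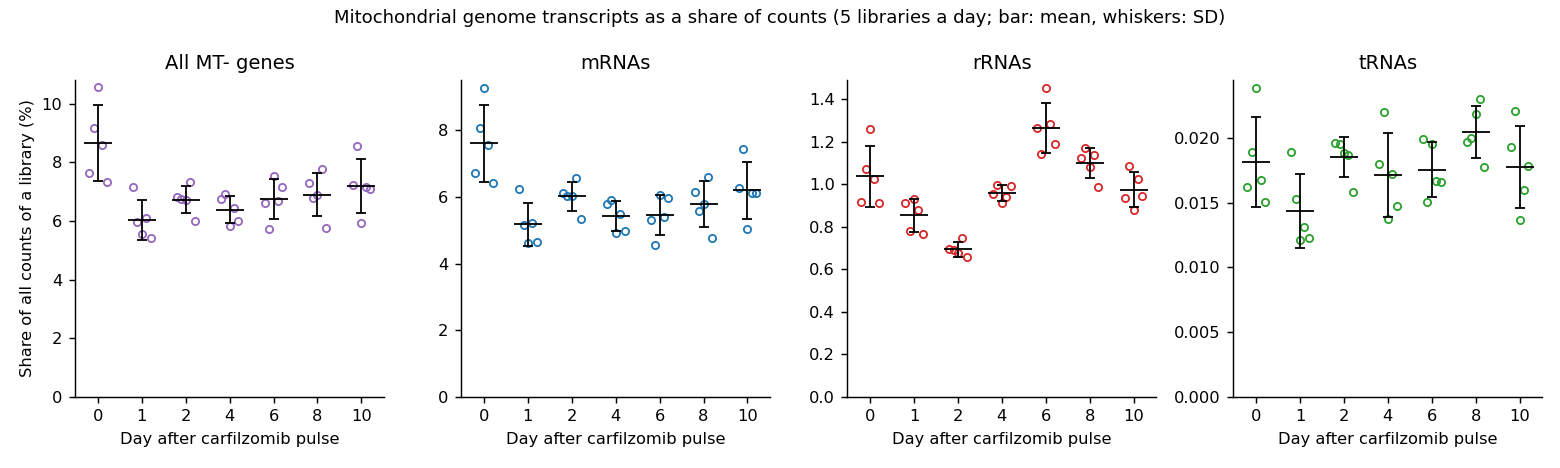
Share of all counts of a library (%, y axis) held by the 37 mitochondrial genes and by their 13 mRNAs, 2 rRNAs and 22 tRNAs on each day (x axis); each circle is a library, bars are means and whiskers SD (n = 5). The mRNA panel is highest on day 0, with a mean of 7.61%, whereas the rRNA panel has its lowest mean on day 2 (0.694%) and its highest on day 6 (1.27%).

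Single genes were tested with edgeR's quasi-likelihood test on all 65717 rows with a count, with p-values adjusted by Benjamini-Hochberg over all of them and a threshold of 0.05. All 6 comparisons share the day 0 libraries. On day 1, 20 of the 37 members were called, 3 higher and 17 lower than day 0, where 21.9% of all rows tested were called (11.3% lower). On day 2 it was 15, 4 higher and 11 lower, with 18.4% of all rows called (8.78% lower). On day 4 it was 12, 1 higher and 11 lower, with 14.2% of all rows called (6.63% lower). On day 6 it was 13, 3 higher and 10 lower, with 11.5% of all rows called (5.24% lower). On day 8 it was 11, 2 higher and 9 lower, with 12.8% of all rows called (5.90% lower). On day 10 it was 6, all of them lower, with 10.3% of all rows called (4.41% lower). Many of the 65717 rows have too few counts to be called, and 28 of the 37 members passed edgeR's filter on low counts. Among the 26617 rows that passed it, 48.3, 41.3, 32.6, 26.7, 29.5 and 24.1% were called on days 1 to 10. All member calls fell on the 28 that passed. As a part of these 28, the calls were above this background on days 1 to 8 and near it on day 10.

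The mRNAs carried the calls, and each mRNA call was in the lower direction. The number of mRNAs lower than day 0 was 12 of 13 at day 1 and 9, 10, 9, 8 and 6 at the 5 time points that followed. Among the 26617 rows past the filter, 23.6, 18.7, 14.7, 11.7, 13.1 and 9.93% were lower at the same times (and 24.7, 22.6, 17.9, 14.9, 16.4 and 14.1% higher). When the test was limited to protein-coding rows, 13, 12, 13, 13, 10 and 8 mRNAs were lower in time order, and the same numbers were lower when all rows of a symbol were summed before the fit, a setting added after the data were seen. The first of these settings moved the log2 fold changes of the mRNAs by a median of −0.21, −0.19, −0.13, −0.06, −0.11 and −0.09, and the second by −0.06 to −0.01. No mRNA was higher on any day by edgeR's test, and none was higher at an unadjusted p under 0.05 or by DESeq2. The median log2 fold change of the 13 mRNAs was −0.59, −0.41, −0.48, −0.49, −0.37 and −0.31 in time order, beside medians of −0.05 to 0.02 over the 26617 rows. All 5 libraries of a day lay below all 5 of day 0 for 10, 7, 8, 7, 6 and 4 mRNAs. Over all 37 members, ranges did not overlap for 13, 10, 9, 8, 8 and 4 genes on these days, where 18.3, 16.0, 12.4, 11.1, 10.8 and 9.75% of all rows tested did not overlap. Of the filtered rows, 41.2, 36.4, 28.2, 25.0, 24.5 and 22.0% did not overlap. When a log2 fold change above 1 in either direction was required as well, 2, 1, 3, 1 and 1 members remained in the first 5 comparisons (11.8, 8.51, 5.41, 4.03 and 4.55% of all rows tested). By edgeR's test none did at day 10, where 3.16% of all rows met both conditions.

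**Figure D2:**
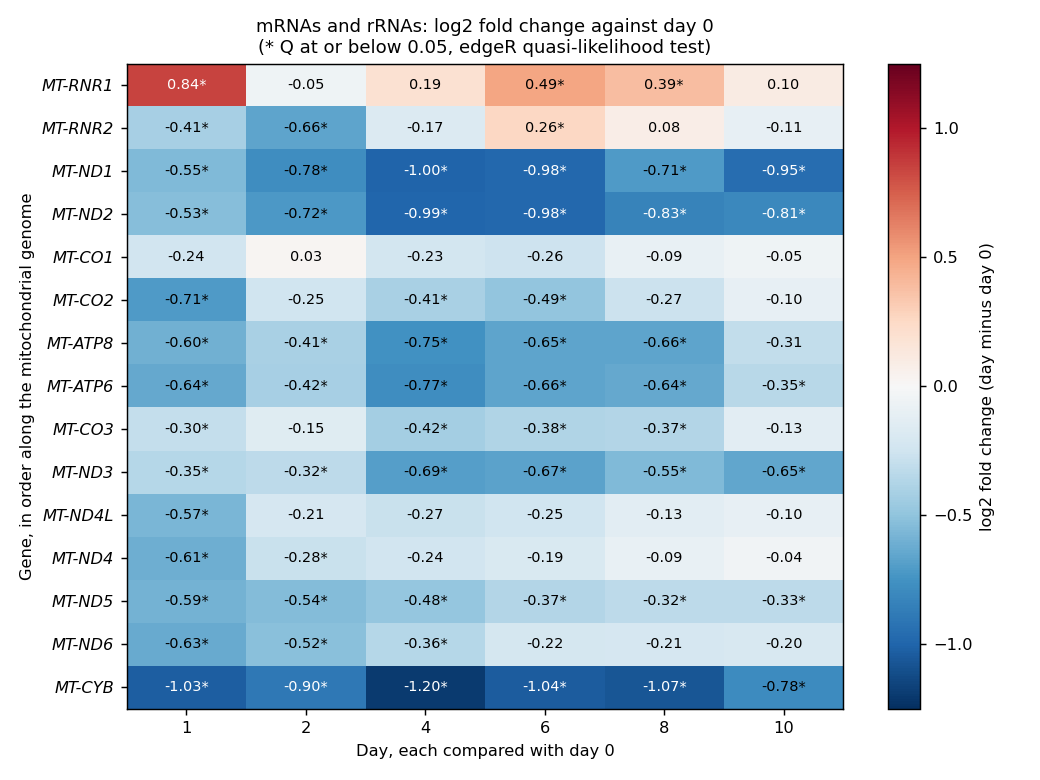
log2 fold change against day 0 (colour and printed value) of the 13 mRNAs and 2 rRNAs, in their order along the mitochondrial genome (y axis), on each later day (x axis); an asterisk marks an adjusted p of at most 0.05. MT-CYB, MT-ND1, MT-ND2, MT-ND3, MT-ND5 and MT-ATP6 carry an asterisk on all 6 days, MT-CO1 on none, and MT-RNR1 is the one gene with a rise over 0.5 (0.84 on day 1).

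MT-CYB encodes cytochrome b, the 1 subunit of complex III made in mitochondria, and it had the lowest log2 fold change of the 13 mRNAs on days 1 to 8. Its level in the 5 day 0 libraries was 6663, 7902, 8926, 7317 and 6272 CPM. At day 1 it was 4352, 3586, 3089, 3599 and 3256 CPM, and at day 10 4445, 5267, 3342, 4153 and 4256 CPM. No library of any later day reached the lowest day 0 library. The log2 fold change was −1.03 at day 1 (SE 0.10, adjusted p = 9.66e-11), −1.20 at day 4 (adjusted p = 5.62e-12) and −0.78 at day 10 (adjusted p = 2.57e-07), with −0.90, −1.04 and −1.07 at days 2, 6 and 8. The call held on all 6 days when any 1 library was left out and under every other setting tried except a minimum fold.

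MT-ND1, MT-ND2 and MT-ND3 encode membrane subunits of complex I, the NADH dehydrogenase, and stayed below day 0 to the end. MT-ND1 measured 4585, 5508, 6143, 4942 and 4247 CPM on day 0 and 4119, 3388, 2897, 3699 and 2969 CPM on day 1. On day 10 it measured 2682, 3179, 2131, 2537 and 2594 CPM. Its ranges did not overlap with day 0 on any day, and the day 1 libraries came closer to day 0 than those of day 10. The log2 fold change of MT-ND1 was −0.55 at day 1 (SE 0.11, adjusted p = 0.000209), −0.98 at day 6 (SE 0.12, adjusted p = 1.75e-08) and −0.95 at day 10 (SE 0.12, adjusted p = 4.21e-08). MT-ND2 measured 5981, 7327, 8143, 6675 and 5801 CPM on day 0, 5537, 4651, 3969, 4823 and 4085 CPM on day 1, and 3869, 4674, 3149, 3813 and 3822 CPM on day 10. It too was below every day 0 library on each later day. Its log2 fold change was −0.53 at day 1 (adjusted p = 0.000102), −0.99 at day 4 (adjusted p = 1.23e-09) and −0.81 at day 10 (adjusted p = 2.23e-07). MT-ND3 had 863, 1019, 962, 933 and 815 CPM on day 0, 777, 712, 630, 777 and 638 CPM on day 1, and 595, 663, 492, 582 and 599 CPM on day 10. Its log2 fold change went from −0.35 on day 1 (SE 0.10, adjusted p = 0.00983) to −0.69 on day 4 and −0.65 on day 10 (adjusted p = 1.18e-05), without overlap on any day. The MT-ND3 call of day 1 was lost without day 0 replicate 2 (−0.29) or day 1 replicate 5 (−0.30), and that of day 2 (−0.32, adjusted p = 0.0222) without any 1 of day 0 replicates 2, 3 and 4 or day 2 replicates 1, 4 and 5 (−0.25 to −0.32).

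The other complex I mRNAs were lowest on day 1 and then differed less from day 0. MT-ND4, which encodes a proton-pumping subunit, had 9423, 11210, 13272, 10689 and 9194 CPM on day 0 and 8313, 6889, 6328, 6864 and 6306 CPM on day 1, and its ranges did not overlap. It fell by 0.61 on the log2 scale on day 1 (SE 0.09, adjusted p = 1.46e-06). On day 10 it had 10494, 12427, 8550, 10343 and 10314 CPM, within the day 0 range except for the third library, and its log2 fold change was −0.04 (adjusted p = 0.936). Its day 2 call (−0.28, adjusted p = 0.0283) was lost in a fit of the libraries of these days alone (−0.25), and without any 1 of day 0 replicates 2, 3 and 4 or day 2 replicates 1, 2, 4 and 5 (−0.19 to −0.28). MT-ND4 was called lower on days 4 and 6 among protein-coding rows (adjusted p of 0.00144 and 0.0361). It was called lower on both days with the rows of a symbol summed (adjusted p of 0.00136 and 0.023), and on day 4 with DESeq2 (adjusted p = 0.0296). MT-ND4L, its small neighbour with the shared bases, had 1301, 1644, 1748, 1454 and 1216 CPM on day 0 and 1223, 987, 852, 1000 and 802 CPM on day 1. Only replicate 1 of day 1 overlapped day 0, and it was called on that day (log2 fold change −0.57, SE 0.11, adjusted p = 7.1e-05) and on no other. MT-ND4L was also called lower on day 4 with the replicate block (−0.28, adjusted p = 0.0406), with DESeq2, among protein-coding rows and with the rows of a symbol summed, and on days 2 and 6 in the last 2 of these settings.

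MT-ND5 and MT-ND6 lie next to each other on opposite strands and encode further membrane subunits of complex I. MT-ND5 had 6896, 8835, 10239, 8077 and 7252 CPM on day 0, 6809, 5264, 4877, 5285 and 4809 CPM on day 1, and 6716, 8094, 5295, 6262 and 6441 CPM on day 10. The day 1 libraries were all below day 0, whereas day 10 overlapped. Its log2 fold change was −0.59 at day 1 (adjusted p = 8.33e-06), then −0.54, −0.48, −0.37 and −0.32, and −0.33 at day 10 (adjusted p = 0.0245), and each passed the test. The MT-ND5 call of day 6 was lost without day 0 replicate 2 or 3 or day 6 replicate 2 (−0.26 to −0.29). That of day 8 was lost without any 1 of day 0 replicates 2, 3 and 4 or of the 5 day 8 libraries (−0.19 to −0.30), and that of day 10 without any 1 of day 0 replicates 2, 3 and 4 or day 10 replicates 1, 3, 4 and 5 (−0.21 to −0.28). Both were also lost in fits of the libraries of their own days alone. MT-ND6, the light-strand mRNA, had 1945, 2272, 2984, 2240 and 1965 CPM on day 0, 1756, 1391, 1380, 1382 and 1325 CPM on day 1, and 1971, 2320, 1683, 2042 and 1846 CPM on day 10. Day 1 lay wholly below day 0 and day 10 overlapped it. The log2 fold change of MT-ND6 was −0.63 at day 1 (SE 0.09, adjusted p = 6.91e-07) and −0.52 at day 2, both called, −0.36 at day 4 (adjusted p = 0.00484) and −0.20 at day 10 (adjusted p = 0.199). The day 4 call was lost without day 0 replicate 3 (−0.22, adjusted p = 0.156) or day 4 replicate 5 (−0.30). MT-ND6 was not called on days 6, 8 and 10, and was called lower there among protein-coding rows (adjusted p of 0.00663 to 0.0177). It was also called lower on these days with the rows of a symbol summed (adjusted p of 0.00419 to 0.00826), and on day 6 with DESeq2 (adjusted p = 0.0458).

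Complex IV, cytochrome c oxidase, takes its 3 core subunits from MT-CO1, MT-CO2 and MT-CO3, and these differed. MT-CO1 had 13210, 15869, 18101, 14798 and 12252 CPM on day 0, 14957, 12446, 10946, 12353 and 11128 CPM on day 1, and 14335, 17039, 11599, 14301 and 14245 CPM on day 10. It overlapped day 0 on all days and was the 1 mRNA that passed the test on none of them, with log2 fold changes between −0.26 (day 6) and 0.03 (day 2) and an adjusted p of 0.0899 on day 1. MT-CO1 was called lower on day 1 when the test was limited to rows past the filter (−0.26, adjusted p = 0.0374) or to protein-coding rows (−0.44, adjusted p = 0.000274), with library sizes alone, with DESeq2 and with the rows of a symbol summed. It was also called lower on day 6 in these settings except library sizes alone (adjusted p of 0.000887 to 0.0443), and on day 4 among protein-coding rows and with the rows summed (adjusted p of 0.0033 and 0.00199). MT-CO2 had 5880, 6948, 7951, 6742 and 5414 CPM on day 0 and 4690, 4002, 3527, 4016 and 3607 CPM on day 1, with no overlap, and its log2 fold change of −0.71 (SE 0.10, adjusted p = 1.76e-07) was the lowest of day 1 after that of MT-CYB. On day 2 it had 5791, 5589, 5720, 6018 and 4925 CPM, which overlapped day 0, and its log2 fold change of −0.25 was not called (adjusted p = 0.0746). It was called lower on day 2 among rows past the filter (−0.27, adjusted p = 0.0281), with RLE factors (adjusted p = 0.0292), with DESeq2 (adjusted p = 0.0146), among protein-coding rows (−0.44, adjusted p = 0.000242) and with the rows of a symbol summed (−0.31, adjusted p = 4.36e-05). MT-CO2 was not called on day 8 (−0.27), and was called lower there in the same settings, with library sizes alone and with the replicate block (adjusted p of 0.000568 to 0.0496). On days 4 and 6 MT-CO2 was called lower (−0.41, adjusted p = 0.00193, and −0.49, adjusted p = 0.000251). MT-CO3 had 5203, 6113, 6989, 5830 and 4684 CPM on day 0 and 5345, 4637, 4107, 4737 and 4187 CPM on day 1, which overlapped. It was called lower on days 1 (−0.30, adjusted p = 0.0283), 4 (−0.42, adjusted p = 0.00224), 6 (−0.38) and 8 (−0.37). Each of these MT-CO3 calls was lost without day 0 replicate 3 (−0.23, −0.31, −0.28 and −0.25). Those of days 1, 6 and 8 were also lost without day 0 replicate 2 or 4 (−0.26 to −0.33) and without day 1 replicate 2, 3 or 5 (−0.25 to −0.29), day 6 replicate 1 or 2 (−0.28 and −0.30), or day 8 replicate 1, 2, 3 or 5 (−0.27 to −0.32). On day 2 MT-CO3 was called lower among protein-coding rows (−0.34, adjusted p = 0.00475) and with the rows of a symbol summed (−0.22, adjusted p = 0.00814).

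MT-ATP6 and MT-ATP8 encode membrane subunits of ATP synthase (complex V) and share 46 bases, and both were lowest on day 4 as a log2 fold change. MT-ATP6 had 4532, 5411, 6445, 5179 and 4440 CPM on day 0, 3866, 3265, 2977, 3299 and 2946 CPM on day 1, and 3392, 3398, 2786, 3065 and 2878 CPM on day 4. No library of day 1 or 4 reached the day 0 range. The log2 fold change was −0.64 at day 1 (SE 0.10, adjusted p = 1.77e-06), −0.77 at day 4 (adjusted p = 1.06e-07) and −0.35 at day 10 (adjusted p = 0.0151). The day 10 call was lost without any 1 of day 0 replicates 2, 3 and 4 or day 10 replicates 1, 3, 4 and 5 (−0.23 to −0.30). MT-ATP8 had 604, 706, 888, 737 and 579 CPM on day 0 and 550, 449, 437, 449 and 390 CPM on day 1, all below day 0. Its log2 fold change was −0.60 at day 1 (SE 0.12, adjusted p = 0.000121), −0.75 at day 4 and −0.31 at day 10 (adjusted p = 0.112). MT-ATP8 was called lower on day 10 with DESeq2 (−0.33, adjusted p = 0.046) and among protein-coding rows (−0.40, adjusted p = 0.00707). It was also called lower there with the rows of a symbol summed (−0.33, adjusted p = 8.75e-06) and without day 10 replicate 2 (−0.40, adjusted p = 0.0276). The MT-ATP8 call of day 2 (−0.41) was lost without any 1 of day 0 replicates 2, 3 and 4 or day 2 replicates 2 and 5 (−0.30 to −0.37). The ratio of MT-ATP8 to MT-ATP6 counts had daily means of 0.133 to 0.139, and that of MT-ND4L to MT-ND4 0.130 to 0.144.

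Since all mRNAs but MT-ND6 are read from the precursor that carries MT-CYB, their proportions were set side by side as a description. MT-CYB held 9.76% ± 0.120 of the counts of the 13 mRNAs before the pulse, 6.91% ± 0.118 at day 1 and 6.91% ± 0.200 at day 10. MT-CO1 went from 19.5% ± 0.234 to 23.9% ± 0.186 on day 1 and 23.1% ± 0.198 on day 10. MT-ND1 stood at 6.69% ± 0.133 on day 0 and 6.59% ± 0.301 on day 1, and at 4.23% ± 0.0570 on day 10. MT-ND4, a complex I gene further downstream, held 14.1% ± 0.188, 13.4% ± 0.241 and 16.8% ± 0.102 on the same days. The count ratio of MT-CYB to MT-ND4 was 0.690 ± 0.0151 on day 0 and 0.351 ± 0.00748 on day 8, and no library of a later day overlapped day 0. The ratio of MT-ND1 to MT-ND4 was 0.473 ± 0.0146 on day 0, 0.491 ± 0.0309 on day 1 and 0.251 ± 0.00445 on day 10, so that it overlapped day 0 on day 1 and not on day 10. A ratio shows unequal change, and does not show which of its genes changed.

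Per length, the order of the mRNAs differed from the order by counts. MT-ND5 was the third highest by CPM (a mean of 6413 CPM over the 35 libraries) and the tenth per length (3539 CPM per kb), and MT-ND4L was the eleventh by CPM (1272 CPM) and the sixth per length (4281 CPM per kb). The mean level over the 35 libraries was highest for MT-CO1 (8879 CPM per kb of gene), MT-CO2 (7814 CPM per kb) and MT-ND4 (6820 CPM per kb) and lowest for MT-ND3 (1953 CPM per kb). MT-RNR2 had 5606 CPM per kb and MT-RNR1 1154 CPM per kb. The lower per-length level of MT-RNR1 held on day 0 (933 ± 129 against 6083 ± 833 CPM per kb) and on day 1 (1633 ± 352 against 4480 ± 330 CPM per kb). Whether the libraries were made by poly(A) selection or by rRNA depletion is not given in the sources used here, and either would set the level of the rRNAs relative to the mRNAs.

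The 2 rRNAs moved in opposite directions on day 1. MT-RNR1 is the 12S rRNA of the small mitochondrial ribosomal subunit, and it had 813, 933, 1073, 882 and 751 CPM on day 0 and 1564, 1325, 2115, 1520 and 1266 CPM on day 1. All 5 day 1 libraries were above all day 0 libraries, with replicate 3 the highest, and the log2 fold change was 0.84 (SE 0.10, adjusted p = 1.17e-08). By day 2 it was back at 832, 929, 860, 949 and 773 CPM, within the day 0 range (log2 fold change −0.05, adjusted p = 0.862), and it fell by 0.89 on the log2 scale between days 1 and 2 (SE 0.10, adjusted p = 7.44e-09). Another, smaller rise was seen on day 6, at 1308, 1192, 1428, 1245 and 1105 CPM, again above every day 0 library (log2 fold change 0.49, adjusted p = 0.000518). It was still called higher on day 8 (0.39, adjusted p = 0.00671) but not on day 10 (0.10, adjusted p = 0.633).

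MT-RNR2, the 16S rRNA of the large subunit, fell first and rose later. It had 8367, 9802, 11522, 9354 and 8375 CPM on day 0, 7559, 6492, 7222, 7259 and 6387 CPM on day 1, and 6145, 5984, 5902, 6544 and 5798 CPM on day 2. Both later days lay wholly below day 0, with log2 fold changes of −0.41 (SE 0.08, adjusted p = 4.87e-05) and −0.66 (SE 0.08, adjusted p = 6.3e-09). On day 4 it had 8543, 8936, 8097, 8379 and 8868 CPM, and on day 6 11344, 10256, 13103, 11581 and 10780 CPM. Each of these days was called higher than the time point before it, by 0.48 (SE 0.08, adjusted p = 1.48e-05) and 0.44 (adjusted p = 0.000396) on the log2 scale. Against day 0, the day 4 level was not called. It was called lower there with DESeq2 (−0.19, adjusted p = 0.0459) and with the rows of a symbol summed (−0.20, adjusted p = 0.0234). The day 6 level overlapped day 0 and was called higher than it (0.26, adjusted p = 0.0176), a call lost in a fit of these 2 days alone (adjusted p = 0.0527). The count ratio of MT-RNR1 to MT-RNR2 was 0.0939 ± 0.00277 on day 0 and 0.222 ± 0.0397 on day 1. It was 0.108 ± 0.00429 on day 10, and the highest day 0 value (0.0972) was below every later library. The 2 genes flank MT-TV, printed above, whose own counts did not pass the filter on low counts.

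**Figure D3:**
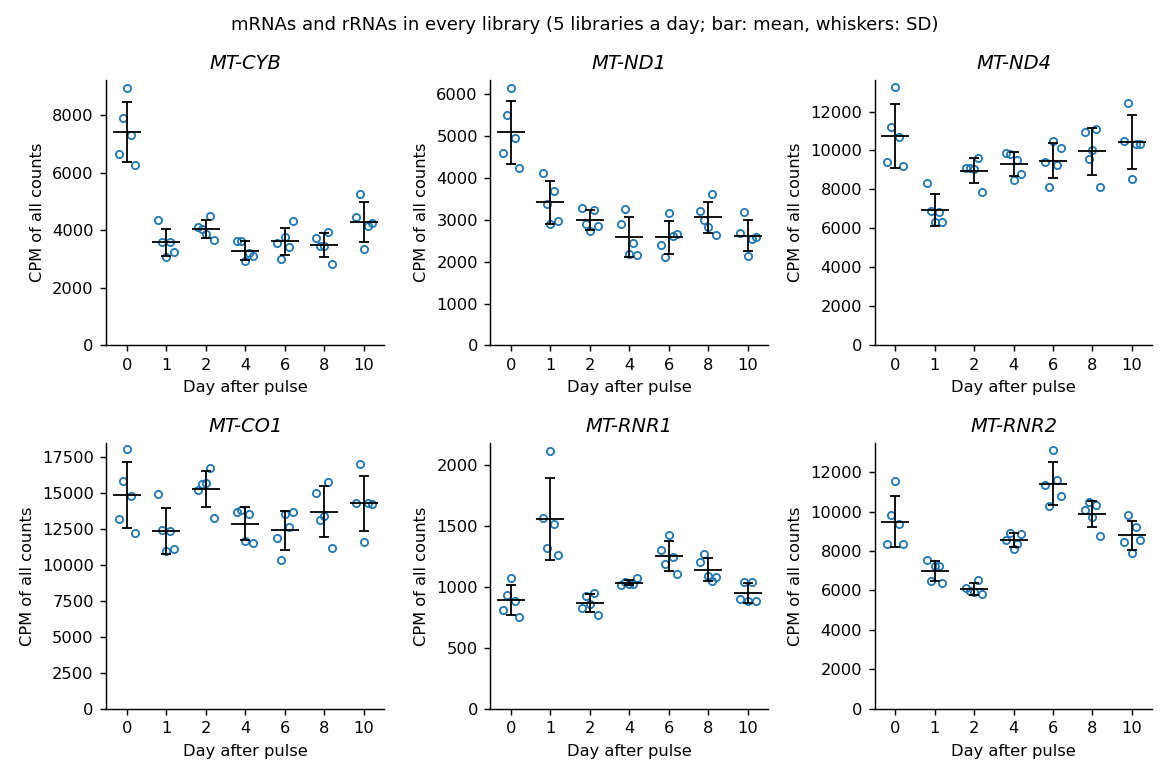
CPM of all counts (y axis) of 4 mRNAs and the 2 rRNAs in each library (circles) by day (x axis), with the mean (bar) and SD (whiskers, n = 5). MT-CYB and MT-ND1 stay below their day 0 values, MT-ND4 is lowest on day 1, and MT-RNR1 is above its day 0 values on days 1 and 6 while MT-RNR2 has its lowest values on day 2 (5798 to 6544 CPM).

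The 22 tRNAs had few counts, and a small set carried nearly all of them. Of 49810 tRNA counts over the 35 libraries, MT-TP, MT-TN, MT-TY, MT-TC and MT-TA held 41503 (83.32%), and the 8 tRNAs of the minus strand together held 44965 (90.27%). The 7 tRNAs highest per length were all on the minus strand, from MT-TP at 757 CPM per kb to MT-TE at 75.6 CPM per kb, whereas the eighth minus-strand tRNA, MT-TQ (glutamine), had 4.20 CPM per kb. The RNA fragments sequenced were longer than any tRNA gene, so these values may come from precursors as well as from tRNAs. The kit keeps strand, but whether the counting used strand is not given in the sources used here, and reads of the opposite precursor then cannot be told apart from reads of these genes and of MT-ND6. MT-TD, MT-TH, MT-TI, MT-TK, MT-TM, MT-TQ, MT-TR, MT-TV and MT-TW did not pass the filter on low counts, and none of these 9 was called on any day. By edgeR's test, day 1 had 2 tRNAs higher and 4 lower, day 2 had 4 higher and 1 lower, and days 4, 6 and 8 had 1 of each. On day 10 edgeR's quasi-likelihood test called 0 of the 22 tRNAs, 2 had an unadjusted p under 0.05 (both higher), and DESeq2 called 0, with 3 given no adjusted p. With the rows of a symbol summed, MT-TP was called higher on day 10 (0.20, adjusted p = 0.0478) and MT-TY lower (−0.32, adjusted p = 0.00471). By edgeR's test MT-TP was also called higher on day 10 without day 0 replicate 3 (0.36, adjusted p = 0.0289) or day 10 replicate 3 (0.33, adjusted p = 0.0488).

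MT-TP, the proline tRNA at the far end of the genome, was called higher on 4 of the 6 days. It had 38.6, 42.0, 52.1, 38.8 and 32.1 CPM on day 0 and 41.5, 43.7, 32.1, 35.5 and 31.5 CPM on day 1 (log2 fold change −0.12, not called). On day 2 it had 64.0, 68.7, 69.6, 63.2 and 60.0 CPM, above every day 0 library (log2 fold change 0.67, adjusted p = 2.06e-06). On day 8 it had 69.0, 62.0, 70.8, 64.9 and 53.1 CPM, also above day 0 (0.68, SE 0.10, adjusted p = 3.21e-06). The log2 fold changes of days 4 and 6 were 0.36 and 0.38, both called. MT-TP ran against the mRNA of its neighbour MT-CYB, which was lower on each of these days.

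The cluster of 4 minus-strand tRNAs was lower on day 1. MT-TN had 31.6, 40.3, 51.5, 34.8 and 30.4 CPM on day 0 and 33.8, 22.9, 20.6, 18.0 and 19.4 CPM on day 1, where only replicate 1 overlapped (log2 fold change −0.69, SE 0.17, adjusted p = 0.0018). MT-TC had 21.5, 29.4, 31.0, 23.0 and 21.5 CPM on day 0 and 19.3, 15.9, 14.6, 13.9 and 14.8 CPM on day 1, with no overlap (−0.66, SE 0.14, adjusted p = 0.000403). MT-TY had 24.6, 31.8, 33.0, 25.0 and 23.6 CPM on day 0 and 30.9, 17.3, 13.2, 16.1 and 16.7 CPM on day 1 (−0.53, adjusted p = 0.0229). Replicate 1 of day 1 stood within the day 0 range and the other 4 below it. The MT-TY call was lost without any 1 of day 0 replicates 2 and 3 or day 1 replicates 2, 3, 4 and 5 (−0.42 to −0.49). MT-TA had 17.9, 18.4, 30.6, 21.1 and 16.5 CPM on day 0 and 17.2, 15.4, 9.36, 15.9 and 9.17 CPM on day 1 (−0.61, adjusted p = 0.0217). Replicate 3 was the highest of day 0, and the MT-TA call was lost without it (−0.44, adjusted p = 0.147) or without day 1 replicate 3 (−0.50) or 5 (−0.48). On day 2, MT-TC was the only tRNA called lower (−0.42, adjusted p = 0.0314), and this was lost without any 1 of day 0 replicates 2, 3 and 4 or day 2 replicates 1, 4 and 5 (−0.32 to −0.43). With the rows of a symbol summed, MT-TN, MT-TY, MT-TA and MT-TE were called lower on day 2 as well (−0.36 to −0.67). In that fit MT-TN, MT-TY and MT-TC were also called lower on day 4 (−0.38, −0.41 and −0.25). MT-TY and MT-TA were called lower in it on day 6 (−0.36 and −0.46).

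MT-TE, the glutamic acid tRNA between MT-ND6 and MT-CYB, was called lower on days 4 to 8. It had 4.57, 7.10, 10.1, 7.23 and 5.79 CPM on day 0 and 10.2, 9.54, 7.38, 7.16 and 7.25 CPM on day 1, which overlapped (log2 fold change 0.29, not called). On day 2 it had 5.35, 4.83, 4.32, 4.14 and 4.02 CPM and was not called. It was called lower there among rows past the filter (−0.64, adjusted p = 0.0211), with RLE factors (adjusted p = 0.044) and with DESeq2 (adjusted p = 0.0134). It was also called with the rows of a symbol summed (−0.67, adjusted p = 0.00125) and without day 0 replicate 1 (−0.72, adjusted p = 0.0355). On day 4 it had 3.88, 3.21, 2.55, 3.88 and 2.80 CPM, below every day 0 library (−1.11, SE 0.25, adjusted p = 0.00079). Days 6 and 8 were called as well (−0.92, adjusted p = 0.00625, and −0.85, adjusted p = 0.0115). Both MT-TE calls were lost without day 0 replicate 3 (−0.73 and −0.64), and that of day 8 also without day 8 replicate 4 (−0.74) or 5 (−0.73). On day 10 it had 7.31, 6.52, 4.45, 7.30 and 4.60 CPM, with a log2 fold change of −0.20 that was not called.

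MT-TG and MT-TL2, on the plus strand, were higher on days 1 and 2 at levels of a few CPM. MT-TG had 1.28, 1.56, 2.95, 0.753 and 1.93 CPM on day 0 (65 counts in all) and 5.30, 4.36, 2.84, 3.94 and 3.11 CPM on day 1 (142 counts), where only replicate 3 of each day overlapped (log2 fold change 1.23, SE 0.29, adjusted p = 0.00111). Its day 2 call (0.85, adjusted p = 0.0344) was lost in a fit of the libraries of these days alone (0.88) and without any 1 of day 0 replicates 1, 2 and 4 or day 2 replicates 2 and 4 (0.71 to 0.86). MT-TL2 had 2.02, 1.08, 2.42, 1.05 and 1.04 CPM on day 0 and 3.49, 4.47, 3.44, 4.14 and 1.94 CPM on day 2, with replicate 5 of day 2 inside the day 0 range (1.18, SE 0.31, adjusted p = 0.00401). On day 1 it had 4.92, 3.27, 2.13, 1.75 and 2.52 CPM (0.95, adjusted p = 0.0235), a call lost in a fit of the libraries of these days alone (0.93) and without day 0 replicate 2, 4 or 5 (0.85 to 0.87) or day 1 replicate 1 (0.70). The remaining tRNA called on any day was the serine tRNA MT-TS2 on day 2 (0.88, SE 0.28, adjusted p = 0.0188), with 67 counts on day 0 and 146 on day 2, and it was named after its value was seen. This call was lost in a fit of these days alone (0.91, adjusted p = 0.0603) and without day 0 replicate 1 (0.83) or day 2 replicate 2 (0.81).

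**Figure D4:**
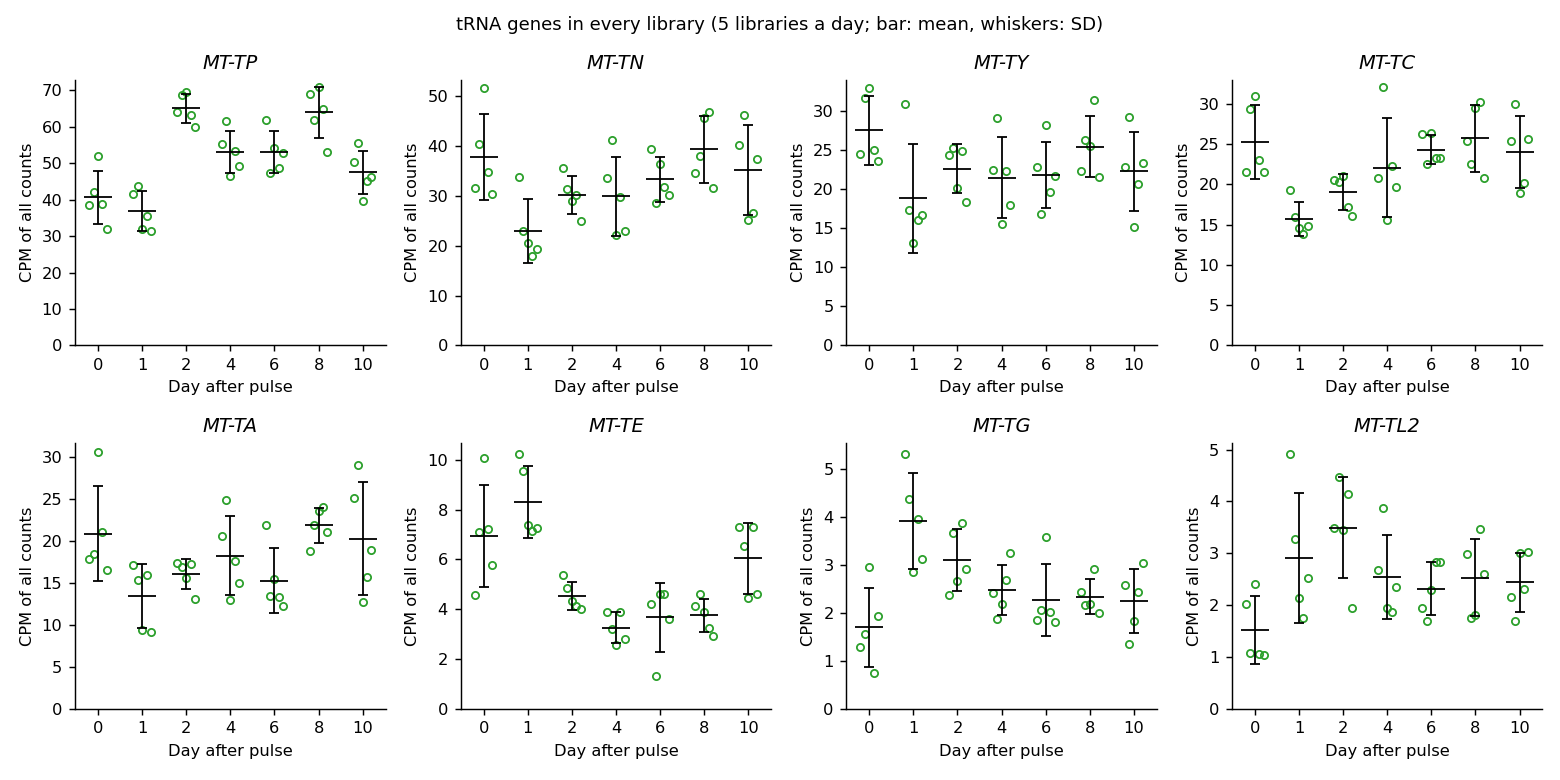
CPM of all counts (y axis) of 8 tRNA genes in each library (circles) by day (x axis), with the mean (bar) and SD (whiskers, n = 5). MT-TP is above its day 0 values on days 2 and 8, MT-TN, MT-TY, MT-TC and MT-TA have their lowest mean on day 1, and MT-TE is below day 0 on day 4 (2.55 to 3.88 CPM).

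In contrasts of neighbouring time points, edgeR's test called the most members between days 1 and 2, where it also called the most of all rows. Against day 1, 7 members were called on day 2, 4 higher and 3 lower, with 12.4% of all rows called. The higher ones were MT-ND4, MT-ND4L, MT-CO2 and MT-TP, and the lower ones MT-RNR1, MT-RNR2 and MT-TE. MT-CO2 rose by 0.46 on the log2 scale (SE 0.10, adjusted p = 0.000559) and all its day 2 libraries lay above those of day 1. MT-TE fell by 0.91 (adjusted p = 0.00555) and MT-RNR2 by 0.25 (adjusted p = 0.0263). The MT-RNR2 call was lost with library sizes and factors set without the mitochondrial genes (−0.22, adjusted p = 0.0798). It was also lost without any 1 of day 1 replicates 1, 3 and 4 or of the 5 day 2 libraries (−0.20 to −0.24). The MT-ND4L call was lost without any 1 of day 1 replicates 3 and 5 or day 2 replicates 2, 3 and 4 (0.31 to 0.37). That of MT-ND4 was lost without day 1 replicate 5 (0.30).

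From day 2 to day 4, 3 members were called (8.02% of all rows): MT-RNR2 was higher, and MT-ATP6 and MT-ND3 were lower. The MT-ATP6 call was lost without any 1 of day 2 replicates 1, 2 and 4 or day 4 replicates 2, 3, 4 and 5 (−0.29 to −0.35), and that of MT-ND3 without any 1 of day 2 replicates 1 and 2 or day 4 replicates 3, 4 and 5 (−0.29 to −0.35). From day 4 to day 6 the 1 member called was MT-RNR2, which was higher (2.19% of all rows). From day 6 to day 8 edgeR's quasi-likelihood test called 0 members (0.251% of all rows), 6 had an unadjusted p under 0.05, of which 5 were higher, DESeq2 called 0, with 14 given no adjusted p, and the fit with the rows of a symbol summed called 5, all higher. From day 8 to day 10 the 1 member called was MT-TP, which was lower (−0.45, adjusted p = 0.0102, with 1.38% of all rows called). It was no longer called without day 8 replicate 3 (−0.42) or day 10 replicate 3 (−0.40).

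The nuclear genome carries copies of mitochondrial sequence, and reads could be shared with them. The 21 rows of the table with symbols of such copies held 298 counts over the 35 libraries, in 14 rows, which is 0.00153% of the member counts. The 5 highest were MTRNR2L4 (0.330 CPM), MTRNR2L8 (0.311 CPM), MTRNR2L12 (0.202 CPM), MTND2P12 (0.0692 CPM) and MTRNR2L6 (0.0436 CPM) as means over the libraries.

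Most of the nuclear genes listed for copying mitochondrial DNA and for transcribing, processing, modifying or degrading mitochondrial RNA were higher on day 1. Of a list of 55 such genes, 54 were measured and SLIRP was not analysed here. Values are those of a gene's protein-coding row. Of the 54 genes, 46 have further rows, such as retained-intron ones, and the protein-coding rows held 76.5% of the counts of the 54 on day 0 and 84.1% on day 1. On day 1, 36 were higher and 2 lower, with a median log2 fold change of 0.48, where 10.6% and 11.3% of all rows tested, and 24.7% and 23.6% of the rows past the filter, were called in these directions. At days 2, 4, 6 and 8 it was 33 and 3, 17 and 11, 11 and 14, and 15 and 12, and at day 10 it was 18 and 8, with a median of 0.15. Of the rows past the filter, 22.6, 17.9, 14.9, 16.4 and 14.1% were higher at these times and 18.7, 14.7, 11.7, 13.1 and 9.93% lower. With the rows of a symbol summed, 37 were higher and 7 lower on day 1 (median 0.37), beside 14.4% and 16.4% of 41178 symbols. In that fit the numbers were 15 and 14 on day 4 and 17 and 14 on day 10, and the medians of days 4, 6 and 8 were −0.07, −0.07 and −0.04, where the protein-coding rows had 0.15, 0.04 and 0.07. By role and protein-coding row, 6 of 9 transcription genes were higher on day 1, 10 of 13 processing genes, 5 of 8 genes of RNA stability and decay, 12 of 16 genes of RNA modification and ribosome assembly, and 3 of 8 genes of mitochondrial DNA replication. The 2 that were lower were TOP1MT, the mitochondrial topoisomerase (−0.39), and MTERF1, a transcription terminator (−0.30).

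POLRMT, the mitochondrial RNA polymerase, averaged 64.8 ± 7.06 CPM on day 0 and 142 ± 9.87 CPM on day 1 (log2 fold change 1.16, SE 0.07, adjusted p = 2.09e-16). It was not called on any later day, with log2 fold changes of 0.03 to 0.20. TFAM, which packages mitochondrial DNA and binds its promoters, was higher on days 1 and 2 (0.35 and 0.37) and lower on days 6 and 8 (−0.36 and −0.30). TFB2M, the partner of the polymerase at promoters, was higher on day 1 (0.35) and lower on days 4, 6, 8 and 10 (−0.38, −0.40, −0.31 and −0.30). LRPPRC, which binds and stabilises mitochondrial mRNAs, was higher on all 6 days, from 0.42 on day 6 to 0.82 on day 2. The directions of these 4 genes on the days named held with the rows of a symbol summed.

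The genes at the ends of the machinery list depended more on which row was read. TRMU, a tRNA-modifying enzyme, had the largest rise of day 1 in its protein-coding row (2.77, from 4.51 ± 1.56 to 30.5 ± 4.33 CPM). That row held 9.51% of the counts of TRMU on day 0 and 44.7% on day 1, and with its rows summed the log2 fold change was 0.48 (adjusted p = 8.93e-10). REXO2, an exonuclease for short RNAs (1.99, adjusted p = 9.97e-22), and ELAC2, which cuts the 3′ ends of tRNAs (1.48, adjusted p = 2.26e-16), came next, with 1.84 and 1.17 when summed. On day 10 the largest rises were TRMU (1.02), the rRNA methyltransferase MRM1 (0.89) and the ribosome assembly factor NSUN4 (0.72). Summed, TRMU was no longer called (0.11, adjusted p = 0.373), MRM1 stood at 0.87 and NSUN4 at 0.32. The largest falls of day 10 were MTERF4, a partner of NSUN4 (−0.65, adjusted p = 0.00478), PNPT1, the mitochondrial polynucleotide phosphorylase (−0.55, adjusted p = 0.00891), and MTERF1 (−0.48, adjusted p = 0.00123). Summed, PNPT1 was not called (0.03, adjusted p = 0.917), and MTERF4 and MTERF1 stood at −0.46 and −0.52.

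Subunits of the same respiratory complexes that are made from nuclear genes were mostly higher than on day 0. Of 74 nuclear genes for subunits of complexes I, III, IV and V, 58 were higher and 3 lower on day 1 (median log2 fold change 0.70), by their protein-coding rows. At the time points that followed, 68, 61, 40, 59 and 37 were higher and the others did not pass the test, with a median of 0.29 on day 10. The shares of all rows tested that were higher were 10.6, 9.60, 7.55, 6.26, 6.87 and 5.89% on the 6 days, and those of the rows past the filter 24.7, 22.6, 17.9, 14.9, 16.4 and 14.1%. Of the 74 genes, 59 have further rows, and the protein-coding rows held 83.3% of their counts on day 0 and 86.1% on day 1. With the rows of a symbol summed, 58 were higher and 5 lower on day 1, and 69, 66, 45, 66 and 41 were higher and 0 lower in time order after that, with medians of 0.65 on day 1 and 0.25 on day 10 (14.4% and 9.29% of symbols were higher on these days). By complex, 31 of 37 genes of complex I were higher on day 1, 6 of 9 of complex III, 9 of 11 of complex IV and 12 of 17 of complex V. On day 10 it was 17, 5, 7 and 8. In complex III, where MT-CYB had fallen, the largest rise of day 1 was UQCRQ (1.55, adjusted p = 2.36e-16), and UQCRH fell (−0.34, adjusted p = 0.00145).

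In complex I the largest rise of day 1 was NDUFS5 (1.63) and the lowest value was that of NDUFA10 (−0.15, not called). In complex IV the largest rise was NDUFA4, from 46.3 ± 7.69 to 191 ± 12.2 CPM (2.07, SE 0.09, adjusted p = 8.31e-22), and the lowest value was that of COX7C (−0.13, not called). In complex V, 2 of the genes for the membrane ring subunit parted, since ATP5G1 rose (1.70) and ATP5G2 fell (−0.51, adjusted p = 3.2e-05). On day 10 the largest rises were NDUFC1 (1.01), UQCRQ (0.76), COX7B (0.52) and ATP5G3 (0.54). The lowest values of day 10 were NDUFA5 (−0.02), UQCRFS1 (0.11), COX6C (0.10) and ATP5F1 (−0.65, adjusted p = 0.0715), and none of these was called. The mitochondrial and nuclear genes were compared here by their own tests against day 0, and the difference between the groups was not tested. With the rows of a symbol summed, NDUFA10 and COX7C were called lower on day 1 (−0.27 and −0.16), COX6C and ATP5F1 were called higher on day 10 (0.58 and 0.19), and UQCRQ stood at 1.11 on day 1 and 0.39 on day 10.

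**Figure D5:**
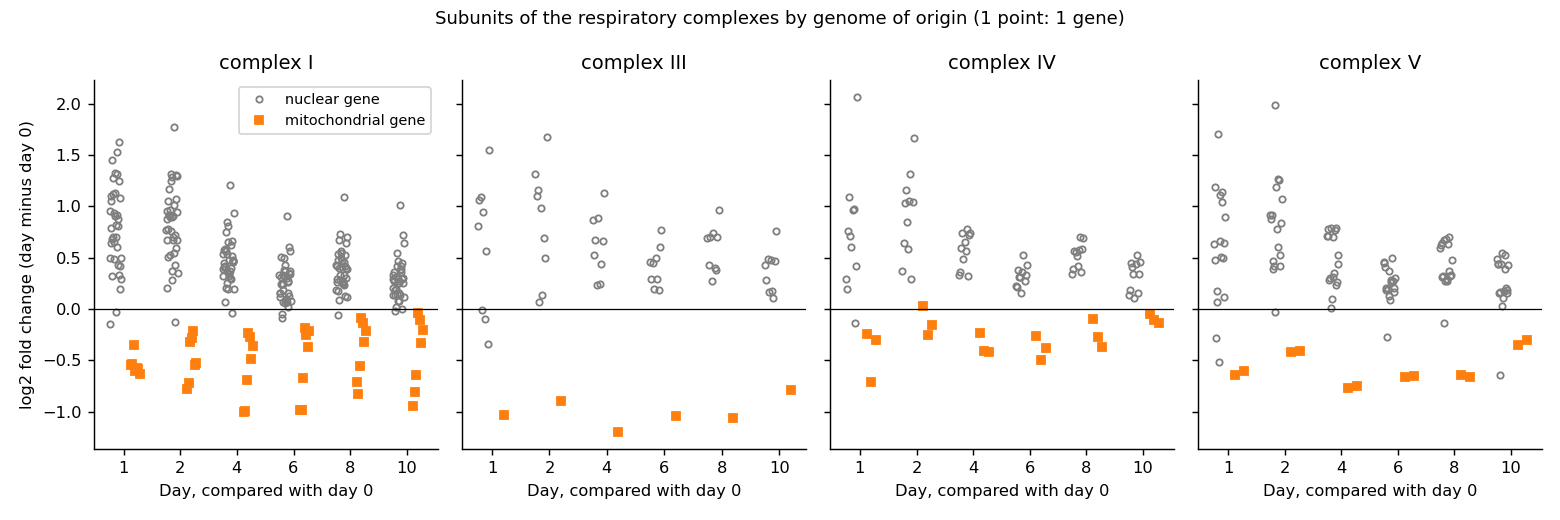
log2 fold change against day 0 (y axis) of the protein-coding row of each nuclear (open circles) and mitochondrial (squares) gene for subunits of complexes I, III, IV and V on each later day (x axis). On day 1 the nuclear genes have a median of 0.70 and the 13 mitochondrial mRNAs a median of −0.59, and on day 10 these medians are 0.29 and −0.31.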

How the data were processed

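Directional RNA-seq libraries of 35 samples were deposited as 1 table of 84647 rows (1 for each symbol and transcript biotype, 56816 symbols), whose unit is estimated counts. Per the labels and the study's methods, the authors made these estimated counts with kallisto 0.44.0 against GRCh38.p12 transcripts with a GC adjustment, and tximport (length-adjusted) summed them over transcripts as whole numbers. DESeq2 1.25.8 and R 3.5.0 are named there too. Groups were the labelled days (5 replicates each). The 65717 rows with a count in any library were fitted in edgeR 4.0.16 (R 4.3.3, limma 3.58.1) with TMM factors (0.936 to 1.09) and day as a factor, by glmQLFit and glmQLFTest, with Benjamini-Hochberg adjustment and a threshold of 0.05. DESeq2 1.42.0, edgeR's filterByExpr (26617 rows), other scalings, protein-coding rows alone, fits of the days compared alone, a replicate block, a log2 fold threshold of 1 and leaving out each library were alternatives. Summing the rows of a symbol (41178 with a count) was added after the data were seen. The fit was also run on simulated counts with the dispersions of these data, with changes set only on day 1 and in rows past the filter. It could not check how well changes are found on other days or in rows below the filter. CPM and shares use the counts of all rows and no TMM factor, so they can differ slightly from the fitted folds. Totals of 6519392 to 10962890 counts give the lowest precision for the tRNAs, which had the fewest counts.

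Nuclear genes were read from their protein-coding row. Named were all mRNAs and rRNAs, the 5 tRNAs highest in CPM and those called with a log2 change above 1, the 5 highest nuclear copies, POLRMT, TFAM, TFB2M and LRPPRC, the 3 largest rises and falls of the machinery list and the extremes of each respiratory complex on days 1 and 10. Members and lists were chosen with earlier results of these data known. Sequences were read from hg38, the assembly of GENCODE release 44.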

Additional observations from a re-analysis of the deposited data

Results flagged for a closer look

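In 6 of 168 groups of 5 libraries, 1 library stood apart from the other 4 by more than 0.71 of the group's whole range (Dixon's gap). This is 3.57% of the groups, and chance alone gives about 1 in 20. MT-ND5, MT-ND6 and MT-TY were all high in day 1 replicate 1. MT-ND5 had 6809 CPM there against 4809 to 5285 CPM in the other 4 libraries. MT-ND6 had 1756 CPM against 1325 to 1391 CPM. MT-TY had 30.9 CPM against 13.2 to 17.3 CPM. MT-ND6 was low in day 2 replicate 5, at 1423 CPM against 1634 to 1680 CPM. MT-ND4L was low in day 6 replicate 2, at 1057 CPM against 1261 to 1313 CPM. MT-TG was high in day 6 replicate 3, at 3.58 CPM against 1.81 to 2.05 CPM.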

How the results depend on the processing

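No alternative reversed the direction of a member's call. MT-CYB, MT-ND1 and MT-ND2 kept their calls on all 6 days under every left-out library and every alternative other than a minimum fold. Counts of members called against day 0 that held under the same settings were 15 of 20 on day 1, 9 of 15 on day 2, 10 of 12 on day 4, 9 of 13 on day 6, 8 of 11 on day 8 and 4 of 6 on day 10. A setting that gave a gene no adjusted p was passed over for that gene, as with the rRNAs and tRNAs among protein-coding rows. With a log2 fold change above 1 also required, 2, 1, 3, 1, 1 and 0 members were called on these days, and 0 between days 1 and 2, 2 and 4, 4 and 6, and 8 and 10. The machinery list then gave 15, 8, 2, 1, 0 and 1 calls and the nuclear subunits 22, 25, 2, 0, 1 and 1. Among protein-coding rows alone, which leave out the rRNAs and tRNAs, 13 members were called on day 1, 4 from day 1 to 2, 0 from day 4 to 6 and 2 from day 8 to 10. With the rows of a symbol summed, chosen after seeing the data, 24, 20 and 10 members were called on days 2, 4 and 10 against day 0, and 14, 12, 2, 5 and 8 in the contrasts of neighbouring time points. The 3 calls from day 2 to 4 became 5 with filterByExpr, 6 with factors set without the mitochondrial genes, 6 with DESeq2 and 7 in a fit of the days compared alone, where 2 were called from day 4 to 6. They became 6 with the replicate block, which moved no other count of members by over 1.5 times. Of 105 same-numbered pairs of libraries, 1 had a correlation of deviations over 0.1 (mean r of 0.00318), and the main fit was left without a replicate block. Such low correlations cannot show whether a number marks the same subculture followed over the days. As a hint from the data, 12 of 35 libraries correlated, on the mean over the other days, best with their own number of 5, where chance gives about 7. The counts of all members, rRNAs and tRNAs included, equalled 10.9, 7.24, 8.00, 7.76, 8.38, 8.46 and 8.86% of the counts of protein-coding rows on days 0 to 10. Leaving out 1 library gave 16 to 20, 10 to 16, 10 to 12, 10 to 13, 8 to 11 and 4 to 7 members called against day 0, with the lowest of days 2 and 10 without day 0 replicate 2. It gave 5 to 8 from day 1 to 2, 1 to 3 from day 2 to 4 (1 without day 2 replicate 1), 1 from day 4 to 6, 0 from day 6 to 8 and 0 to 1 from day 8 to 10. The machinery list gave 36 to 39, 32 to 36, 25 to 28, 24 to 27, 20 to 24 and 23 to 27 calls, and the nuclear subunits 59 to 63, 67 to 69, 58 to 65, 38 to 45, 59 to 68 and 37 to 45. The share of counts ranged from 8.19 to 8.99% on day 0, 5.76 to 6.20% on day 1, 6.58 to 6.91% on day 2, 6.26 to 6.53% on day 4, 6.55 to 7.0% on day 6, 6.69 to 7.19% on day 8 and 6.85 to 7.51% on day 10. Where the construction of an alternative does not show the cause, the cause was not tested. The 9 tRNAs below the filter had few counts, and the part of depth in this was not tested.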
